A study of Mus musculus with 12 samples.

Results

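The mitosis and G2/M genes were a list of 40 genes whose products drive entry into mitosis, build the spindle and kinetochores, time anaphase and cut the cell into daughters. They were picked by name, and each was read from a mouse genome expression array through 1 probe set, the brightest over all arrays among those annotated with a single gene symbol. Of the 40 genes, 39 were measured, among 18193 genes in all. Ccnb1, which encodes cyclin B1, matched no probe set under this rule and was not analysed here. The array data came from A2C12, a lung tumour line established from mice that carry c-myc and c-raf transgenes on the C57BL/6 background, so all groups share these transgenes and are 1 cell line. Cells were sorted by Hoechst, a dye that binds DNA, into a side population (SP), which shows little of the dye, and the rest (non-SP). There were 4 groups of 3 arrays, labelled as biological replicates: SP and non-SP cells kept for 48 h with 100 µg/ml of a monoclonal antibody against mouse EpCAM (SP anti-EpCAM, non-SP anti-EpCAM), and SP and non-SP cells without treatment (SP untreated, non-SP untreated). EpCAM is an adhesion protein of epithelial cell surfaces, and the labels name no control antibody for the untreated cells.

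Values are log2 signals of the authors' RMA summary, so a difference of 1 is a 2-fold one. Each SP array and the non-SP array with its number and treatment are called a culture below, since their deviations from the group means moved together across genes, with correlations of 0.55 to 0.84 over the 6 pairs, although the labels do not state a shared culture. SP anti-EpCAM replicate 2 stood apart. It was the only array that correlated best with an array of another culture (SP untreated replicate 1). The signal at the 3' end of the actin control exceeded that at its 5' end by 1.03 log2 units on this array and by 0.89 on its non-SP partner, by 0.73 on SP untreated replicate 3, and by 0.18 to 0.40 on the other 9 arrays. A larger gap is a sign of RNA broken into shorter pieces. Of 15 epithelial and alveolar marker genes of the labelled lung tumour origin, 4 lay above the median gene level of 7.02 (Epcam at 8.11, Krt8 at 8.77, Sftpb at 7.44 and Abca3 at 9.01), and Sftpc at 5.64, Nkx2-1 at 5.55 and Cdh1 at 6.35 lay below it. Of 11 fibroblast and endothelial markers, 6 were above it, among them Col1a1 at 11.5 and Pdgfrb at 10.5, and the others were not. By definition, as many genes of the table lie above the median as below it. The mean level of the 11 markers ran from 7.996 to 8.32 over SP anti-EpCAM arrays and 8.15 to 8.26 over non-SP anti-EpCAM arrays. It ran from 8.17 to 8.30 over SP untreated arrays and 8.19 to 8.36 over non-SP untreated arrays.

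Dividing cells make most of these transcripts in late S phase, G2 and mitosis and switch them off in G1 and in quiescence. The genes share a way of being controlled: in resting cells the DREAM complex represses them, and in cycling cells its MuvB core joins B-Myb and FoxM1 and activates them, through a promoter element called the cell cycle genes homology region (CHR) that often stands beside CCAAT boxes bound by NF-Y. Cyclin B with Cdk1 then starts mitosis, and the anaphase promoting complex ends it by marking cyclin B and securin for destruction. As a group these transcripts are the usual readout of proliferation in expression data of tumours and cell lines.

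Promoters are shown for the members whose values are followed below and that hold both elements within the 100 bases before the annotated start site, with Pttg1 beside them as a member that holds neither. The sequences are from RefSeq on the mouse assembly GRCm38.p6, read 5' to 3' on the strand of the gene. Capitals mark the CHR (TTTGAA, or TTCAAA on the other strand) and the CCAAT box (CCAAT, or ATTGG on the other strand).
Ube2c, chr2:164769829-164769928, plus strand: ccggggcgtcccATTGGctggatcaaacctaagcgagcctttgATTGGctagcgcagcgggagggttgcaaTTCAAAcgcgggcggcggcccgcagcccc
Cdc20, chr4:118437344-118437443, minus strand: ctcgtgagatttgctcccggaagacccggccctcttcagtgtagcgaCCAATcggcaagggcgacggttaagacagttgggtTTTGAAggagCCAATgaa
Prc1, chr7:80294376-80294475, plus strand: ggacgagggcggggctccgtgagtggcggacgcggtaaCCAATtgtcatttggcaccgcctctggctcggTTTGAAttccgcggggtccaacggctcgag
Cdk1, chr10:69352913-69353012, minus strand: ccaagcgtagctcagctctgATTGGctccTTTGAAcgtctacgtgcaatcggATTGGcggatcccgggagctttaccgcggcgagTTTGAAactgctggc
Top2a, chr11:99024190-99024289, minus strand: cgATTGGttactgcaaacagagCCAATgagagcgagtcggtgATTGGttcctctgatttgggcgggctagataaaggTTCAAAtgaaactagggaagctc
Kif11, chr19:37376282-37376381, plus strand: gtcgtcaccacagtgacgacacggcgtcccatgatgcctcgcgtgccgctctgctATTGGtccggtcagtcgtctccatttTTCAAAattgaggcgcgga
Pttg1, chr11:43425982-43426081, minus strand: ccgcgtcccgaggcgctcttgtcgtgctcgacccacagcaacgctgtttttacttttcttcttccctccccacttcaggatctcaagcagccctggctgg
The Ube2c window has a CHR at -29 and CCAAT boxes at -57 and -88, counted from the start site to the first letter of the match. Prc1, Kif11 and Top2a each have 1 CHR and at least 1 CCAAT box further upstream, and Cdk1 has a CHR at -15 and at -71.

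Promoters of 250 bases before to 50 after the start were found for 34 of the 40 members, 36 promoters in all, and not for Ccna2, Cdc25c, Aurkb, Tpx2, Dlgap5 and Kif20a. The CHR letters were present on either strand in 26 of the 36 (72.2%), against 17.9% of all 32851 promoters in the table. A CCAAT box was present in 28 (77.8%), against 37.4% of all promoters, and both elements in 23 (63.9%), against 6.95%. In 1 of the 36 promoters matches to the 2 elements overlapped. Neither element was found in 5 members (Mad2l1, Pttg1, Nuf2, Birc5 and Nusap1), which is 13.9% of the promoters against 51.7% of all. Among 33 promoters of DNA replication and G1/S genes the CHR letters were in 12.1% and both elements in 9.09%. Among 63 promoters of further mitosis genes the shares were 55.6% and 39.7%. A match is a stretch of letters, not a measured binding site, and the members were listed with this kind of control known for many of them.

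**Figure D1:**
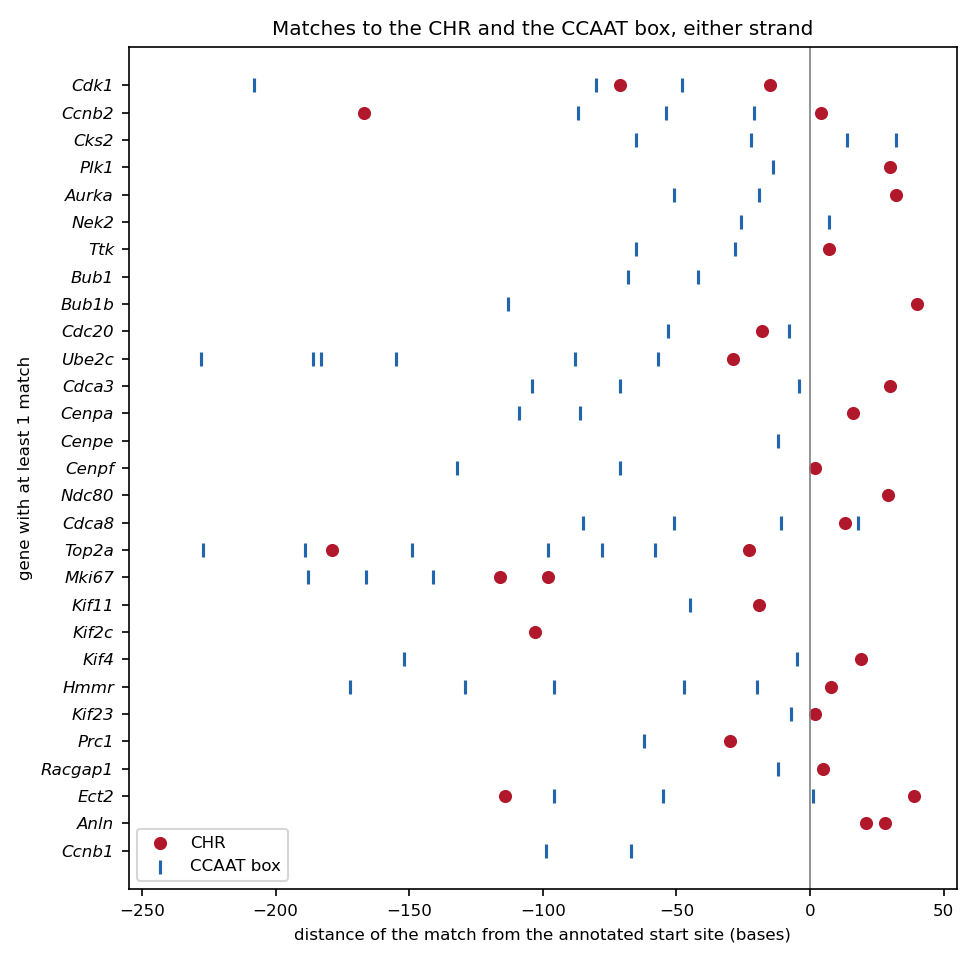
Matches to the CHR (red points) and the CCAAT box (blue bars) on either strand, by distance in bases from the annotated start site, for the 29 members with at least 1 match, and for the start with the highest coordinate where a gene had several. Most matches lie close to the start site, the CHR on both sides of it and the CCAAT boxes mainly upstream.

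The first comparison sets SP cells, which show little of the dye, beside the rest of the same line. On average over both treatments all 39 members were lower in SP cells, by a median of 0.21 log2 units (a median difference of -0.21), while 55.8% of all genes were lower. In a fit that did not pair arrays by culture, limma called 0 of 39 members at an adjusted p under 0.05, with 0.0% of all genes called. At an unadjusted p under 0.05, 0 of 39 passed, against 0.104% of all genes. With arrays paired by culture, 0 of 39 passed the unadjusted threshold, against 2.13% of all genes. In sorted bulk samples, fewer dividing cells and less of these transcripts per dividing cell cannot be told apart.

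The average hides cultures that disagreed. In anti-EpCAM culture 2, all 39 members were lower in SP cells, against 60.5% of all genes, by a median difference of -0.98 (1.97-fold), and 36 of them lay below -0.5, against 10.6% of all genes. In untreated culture 1, all 39 were again lower, against 44.3% of all genes, at a median of -0.62 (1.53-fold), with 30 below -0.5, against 2.03% of all genes. In untreated culture 2, 38 of 39 were lower, against 47.6% of all genes, but the median was -0.21 and 0 members lay below -0.5, against 0.335% of all genes. The direction was opposite in anti-EpCAM culture 1, where 36 of 39 members were higher in SP cells (median 0.21, against 43.8% of all genes higher), and in untreated culture 3, also 36 of 39 (median 0.19, against 50.3% of all genes). In anti-EpCAM culture 3 the members were level between the fractions, 22 higher and 17 lower, with a median of 0.02 and 53.1% of all genes higher.

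**Figure D2:**
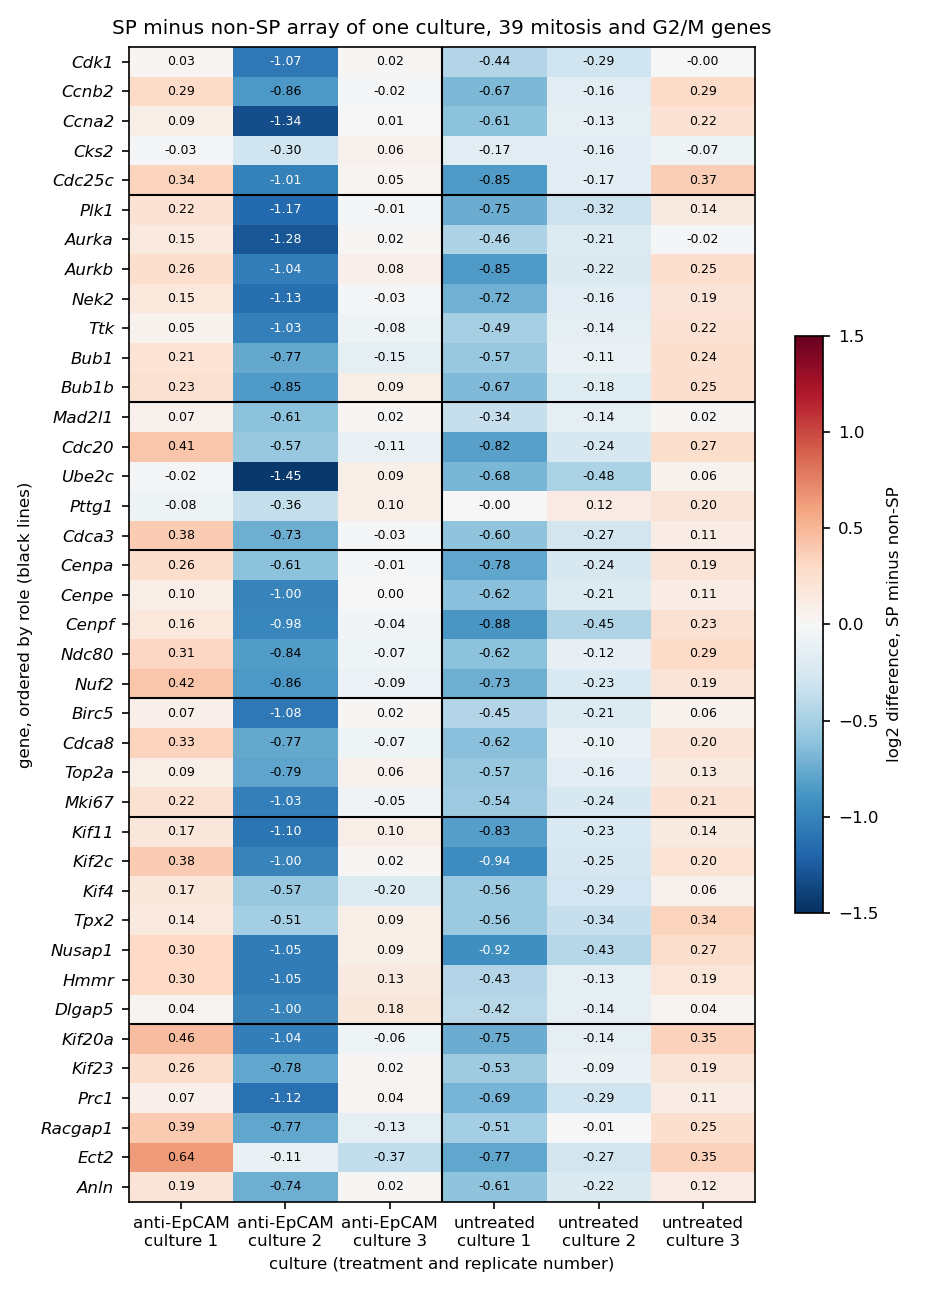
Difference in log2 level between the SP and the non-SP array of each culture for the 39 measured members, ordered by role, with blue for lower and red for higher in SP cells. The columns of anti-EpCAM culture 2 and untreated culture 1 are blue in every row, those of anti-EpCAM culture 1 and untreated culture 3 are red in 36 of 39, and that of anti-EpCAM culture 3 is near 0.

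These counts rest on 1 pair of arrays per culture and have no test of their own. In SP cells, 34 of 39 members were lower in anti-EpCAM culture 2 and untreated cultures 1 and 2. The same 34 were higher in anti-EpCAM culture 1 and untreated culture 3. Of all genes, 6.09% showed this pattern. It was drawn from the members' own signs after their values were seen, leaving out anti-EpCAM culture 3. The count of members therefore describes them and tests nothing. The exceptions were Cdk1, Cks2, Aurka, Ube2c and Pttg1. For Cks2 this depends on the probe set. Another Cks2 probe set, at a mean level of 12.26, had the pattern, with 0.18, -0.20 and -0.03 in the anti-EpCAM cultures. In the untreated cultures it differed by -0.21, -0.07 and 0.11. Over the 6 cultures the differences of 2 members correlated at a median of 0.95 across the 741 pairs, from -0.02 to 1.00, as a description over 6 points that share arrays and treatments. In anti-EpCAM culture 2, 20 of 39 members were among the 100 lowest genes of the table and 31 among the 500 lowest. In untreated culture 1 these numbers were 14 and 32. The lowest 100 genes are 0.55% of the table and the lowest 500 are 2.75%.

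By array, the transcripts of SP cells varied and those of non-SP cells were steadier. The median SD of the members over 3 arrays was 0.65 in SP anti-EpCAM cells against 0.20 in non-SP anti-EpCAM cells, and 0.43 in untreated SP cells against 0.15 in untreated non-SP cells. For all genes the same medians were 0.25 against 0.26, and 0.22 against 0.20. SP anti-EpCAM replicate 2 was the lowest of all 12 arrays for 37 of 39 members, every one but Pttg1 and Ect2, against 20.2% of all genes. SP untreated replicate 1 was the lowest of the other 11 for 26 of 39, against 3.34% of all genes. At the other end, SP untreated replicate 3 was the highest of the 6 SP arrays for 29 of 39, against 23.7% of all genes. That array had the third largest actin gap, 0.73, so the members were at their low on an array with a wide gap and at their high on another. SP untreated replicate 1, with a gap of 0.21, was low as well. The part of RNA quality in the member levels was not tested.

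**Figure D3:**
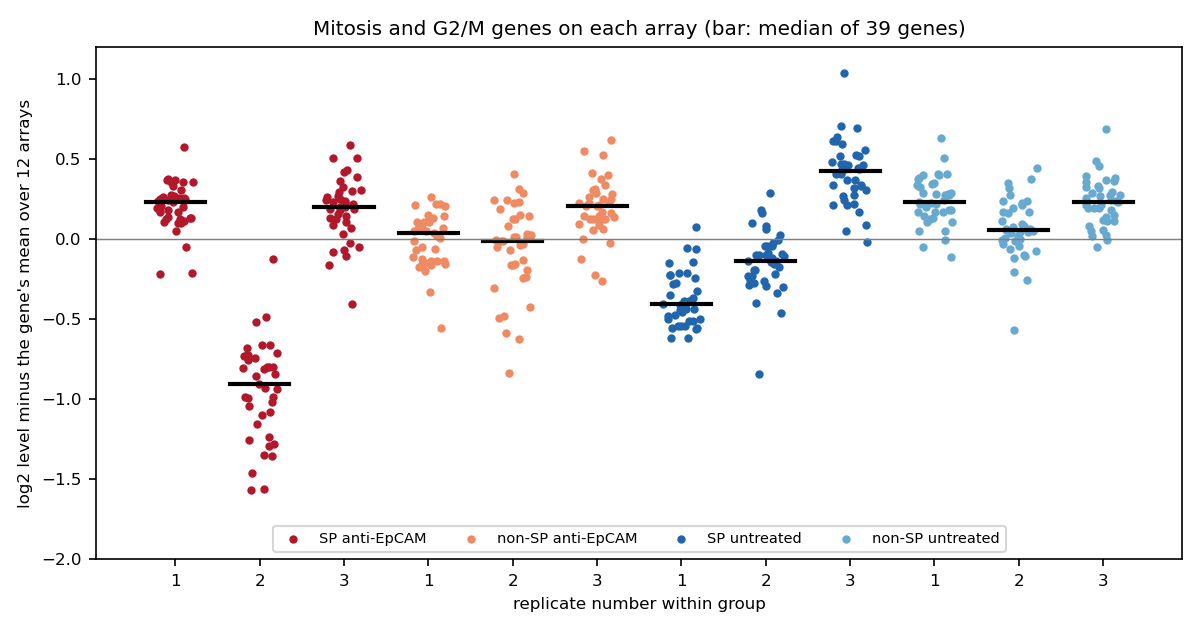
Level of each of the 39 members on each of the 12 arrays as a deviation from that gene's mean over the arrays (log2 units), with a black bar at the median of the members. The median is -0.90 on SP anti-EpCAM replicate 2 and -0.41 on SP untreated replicate 1, reaches 0.43 on SP untreated replicate 3, and stays between -0.01 and 0.23 on the 6 non-SP arrays.

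For each of the 39 members the SP and non-SP arrays overlapped in both treatments, and the single values below show in which cultures they parted. Among the genes that set off mitosis, Cdk1, the kinase that cyclin B activates, had log2 levels of 11.82, 10.60 and 11.88 in SP anti-EpCAM cells against 11.79, 11.67 and 11.85 in non-SP anti-EpCAM cells, and 11.49, 11.35 and 11.85 in untreated SP cells against 11.93, 11.65 and 11.86 in untreated non-SP cells. SP anti-EpCAM replicate 2 was lower than its partner by 1.07 log2 units, and the SP and non-SP arrays overlapped in both treatments. The difference between SP and non-SP cells was -0.34 ± 0.28 (SE) with the antibody and -0.25 ± 0.28 (SE) without it, neither past the threshold (adjusted p = 1.00 and 1.00). Cdc25c, the phosphatase that removes the inhibitory phosphates from Cdk1, had levels of 7.61, 6.81 and 8.25 in SP anti-EpCAM cells against 7.27, 7.82 and 8.20 in non-SP anti-EpCAM cells, and 7.33, 7.89 and 8.44 in untreated SP cells against 8.18, 8.07 and 8.06 in untreated non-SP cells. It was lower in SP cells by 0.85 in untreated culture 1 and higher by 0.37 in untreated culture 3, the highest member there. Ccna2, which encodes the cyclin A of S phase and G2, had levels of 10.44, 9.56 and 10.62 in SP anti-EpCAM cells against 10.35, 10.89 and 10.61 in non-SP anti-EpCAM cells, and 9.93, 10.40 and 11.10 in untreated SP cells against 10.54, 10.53 and 10.88 in untreated non-SP cells. Its non-SP anti-EpCAM replicate 2 was the highest of the 6 non-SP arrays, next to an SP partner that was the lowest array of all. The second cyclin B gene, Ccnb2, differed by 0.29, -0.86 and -0.02 in the anti-EpCAM cultures and -0.67, -0.16 and 0.29 in the untreated cultures. Cks2, a small subunit that binds Cdk1, had the smallest differences of this set in anti-EpCAM culture 2 and untreated culture 1: -0.03, -0.30 and 0.06 in the anti-EpCAM cultures and -0.17, -0.16 and -0.07 in the untreated cultures.

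The mitotic kinases followed the same cultures. Plk1, polo-like kinase 1, which acts from mitotic entry to cytokinesis, had levels of 9.57, 8.19 and 9.73 in SP anti-EpCAM cells against 9.36, 9.35 and 9.74 in non-SP anti-EpCAM cells, and 8.93, 9.24 and 9.43 in untreated SP cells against 9.68, 9.56 and 9.29 in untreated non-SP cells. Aurka, the Aurora kinase of centrosomes and spindle poles, had levels of 10.29, 8.63 and 10.23 in SP anti-EpCAM cells against 10.15, 9.91 and 10.21 in non-SP anti-EpCAM cells, and 9.86, 9.46 and 10.17 in untreated SP cells against 10.32, 9.67 and 10.19 in untreated non-SP cells. For both genes SP anti-EpCAM replicate 2 was the lowest array by a wide margin, and SP and non-SP arrays overlapped in both treatments. Ttk, the Mps1 kinase of the spindle checkpoint, had levels of 8.53, 7.53 and 8.22 in SP anti-EpCAM cells against 8.48, 8.55 and 8.30 in non-SP anti-EpCAM cells, and 7.94, 8.22 and 8.79 in untreated SP cells against 8.43, 8.36 and 8.57 in untreated non-SP cells. It had the lowest unadjusted p of all members for SP against non-SP with the antibody, with a difference of -0.35 ± 0.26 (SE) and a 95% interval from -0.91 to 0.20. Its adjusted p by limma was 1.00. Bub1b, which encodes the checkpoint protein BubR1, had levels of 9.26, 8.31 and 9.47 in SP anti-EpCAM cells against 9.03, 9.16 and 9.38 in non-SP anti-EpCAM cells, and 8.77, 9.31 and 9.58 in untreated SP cells against 9.43, 9.49 and 9.33 in untreated non-SP cells, overlapping between fractions in both treatments. Aurkb, the kinase of the chromosomal passenger complex, differed between the fractions by 0.26, -1.04 and 0.08 in the anti-EpCAM cultures and -0.85, -0.22 and 0.25 in the untreated cultures. Nek2, a kinase that separates centrosomes, and Bub1, a checkpoint kinase of kinetochores, differed by -1.13 and -0.77 in anti-EpCAM culture 2 and by -0.72 and -0.57 in untreated culture 1.

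The checkpoint and anaphase genes held members with very unlike values. Ube2c, the ubiquitin-conjugating enzyme of the anaphase promoting complex, had levels of 12.04, 10.47 and 12.36 in SP anti-EpCAM cells against 12.06, 11.92 and 12.27 in non-SP anti-EpCAM cells, and 11.65, 11.83 and 11.98 in untreated SP cells against 12.33, 12.31 and 11.92 in untreated non-SP cells. Its difference in anti-EpCAM culture 2 was -1.45, which is 2.73-fold lower in SP cells and the lowest value of all 18193 genes in that culture. The other differences of Ube2c were -0.02 and 0.09 in anti-EpCAM cultures 1 and 3, and -0.68, -0.48 and 0.06 in the untreated cultures. Averaged over treatments it differed by -0.41 ± 0.26 (SE), with a 95% interval from -0.97 to 0.15 and an adjusted p of 1.00 by limma. Cdc20, the activator that gives the complex its targets at anaphase, had levels of 11.74, 10.68 and 11.78 in SP anti-EpCAM cells against 11.33, 11.25 and 11.89 in non-SP anti-EpCAM cells, and 10.86, 11.19 and 12.12 in untreated SP cells against 11.68, 11.42 and 11.85 in untreated non-SP cells. Its chosen probe set, with an x_at name that marks probes matching several transcripts, differed by -0.57 in anti-EpCAM culture 2 and -0.82 in untreated culture 1. Another Cdc20 probe set, at a mean level of 11.08, differed by -1.17 and -0.68, so the order of those cultures depends on the probe set. Pttg1, securin, which holds back the protease that splits sister chromatids, had levels of 11.57, 11.66 and 11.76 in SP anti-EpCAM cells against 11.65, 12.02 and 11.66 in non-SP anti-EpCAM cells, and 11.73, 11.97 and 12.005 in untreated SP cells against 11.73, 11.85 and 11.81 in untreated non-SP cells.

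With its chosen probe set Pttg1 stood outside the shared pattern. Its 12 values spanned 11.57 to 12.02, its difference was -0.36 in anti-EpCAM culture 2 and -0.0049 in untreated culture 1, and averaged over treatments it differed by -0.0035. Its chosen probe set has an s_at name, which marks probes that match several transcripts. The gene's other probe sets, at mean levels of 9.45 and 7.14, differed by -0.22 and -0.32 in untreated culture 1. In anti-EpCAM culture 2, where the other members were lowest, they differed by 0.14 and 0.00, so the probe sets disagree there. In the remaining cultures of the pattern both had the direction of most members. They differed by 0.14 and 0.23 in anti-EpCAM culture 1, -0.12 and -0.13 in untreated culture 2, and 0.22 and 0.03 in untreated culture 3. Mad2l1, the Mad2 checkpoint protein that restrains Cdc20, differed by 0.07, -0.61 and 0.02 in the anti-EpCAM cultures and -0.34, -0.14 and 0.02 in the untreated cultures. Cdca3, a trigger of mitotic entry that serves the destruction of Wee1, differed by 0.38, -0.73 and -0.03 in the anti-EpCAM cultures and -0.60, -0.27 and 0.11 in the untreated cultures.

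**Figure D4:**
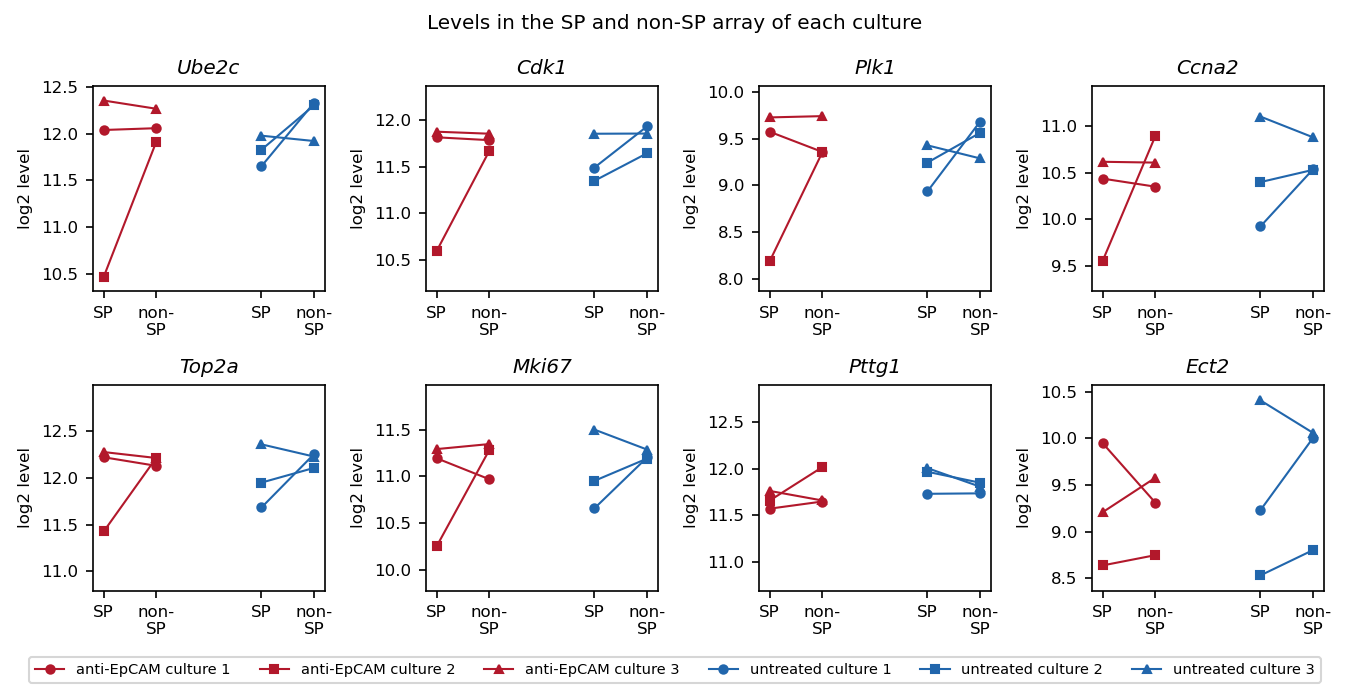
Log2 level of 8 members in the SP and the non-SP array of each culture, joined by a line, with anti-EpCAM cultures in red and untreated cultures in blue. All panels span 2.2 log2 units. For Ube2c, Cdk1, Plk1, Ccna2, Top2a and Mki67 the lines of anti-EpCAM culture 2 and untreated culture 1 drop most steeply towards SP. Pttg1 drops by 0.36 in anti-EpCAM culture 2 and is nearly level in untreated culture 1. Ect2 groups by culture more than by fraction, though its fractions differ by -0.77 in untreated culture 1 and 0.64 in anti-EpCAM culture 1.

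Of the kinetochore and centromere genes, Cenpf, a large protein of the outer kinetochore, had levels of 9.63, 7.69 and 9.76 in SP anti-EpCAM cells against 9.47, 8.67 and 9.81 in non-SP anti-EpCAM cells, and 8.78, 8.996 and 9.68 in untreated SP cells against 9.66, 9.45 and 9.45 in untreated non-SP cells. SP anti-EpCAM replicate 2 was the lowest array and its non-SP partner the second lowest, so in this culture both fractions were low. Cenpf also had the widest standard error of these 5 genes, with a difference of -0.37 ± 0.47 (SE) in untreated cells. Ndc80, the microtubule-binding protein of the kinetochore, had levels of 8.72, 7.77 and 8.46 in SP anti-EpCAM cells against 8.41, 8.61 and 8.53 in non-SP anti-EpCAM cells, and 8.31, 8.33 and 9.05 in untreated SP cells against 8.93, 8.45 and 8.76 in untreated non-SP cells. The fractions overlapped in both treatments. Nuf2, the partner of Ndc80, differed by 0.42, -0.86 and -0.09 in the anti-EpCAM cultures and -0.73, -0.23 and 0.19 in the untreated cultures. Cenpa, the histone H3 variant that marks centromeres, differed by -0.61 in anti-EpCAM culture 2 and -0.78 in untreated culture 1. Cenpe, a kinesin that brings chromosomes to the spindle equator, differed by -1.003 and -0.62 in the same cultures.

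Top2a, the topoisomerase that untangles chromosomes before anaphase, had levels of 12.22, 11.43 and 12.28 in SP anti-EpCAM cells against 12.13, 12.22 and 12.21 in non-SP anti-EpCAM cells, and 11.68, 11.95 and 12.36 in untreated SP cells against 12.25, 12.11 and 12.23 in untreated non-SP cells. Mki67, which encodes the proliferation marker Ki-67 of the chromosome surface, had levels of 11.19, 10.25 and 11.29 in SP anti-EpCAM cells against 10.97, 11.28 and 11.35 in non-SP anti-EpCAM cells, and 10.66, 10.95 and 11.50 in untreated SP cells against 11.20, 11.19 and 11.29 in untreated non-SP cells. For both, the non-SP arrays lay close together, the spread was in the SP arrays, and the fractions overlapped in both treatments. The difference of Mki67 was -0.29 ± 0.27 (SE) with the antibody and -0.19 ± 0.27 (SE) without it, and that of Top2a was -0.21 ± 0.23 (SE) and -0.20 ± 0.23 (SE). None passed the threshold. Birc5, survivin, and Cdca8, borealin, are subunits of the chromosomal passenger complex and differed by -1.08 and -0.77 in anti-EpCAM culture 2. In untreated culture 1 they differed by -0.45 and -0.62.

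Spindle proteins were represented by 7 genes. By their chosen probe sets all were lower in SP cells in anti-EpCAM culture 2 and in untreated cultures 1 and 2. All were higher in anti-EpCAM culture 1 and untreated culture 3. Another probe set of Kif2c and 1 of Dlgap5 differed by 0.06 and 0.03 in untreated culture 2. Kif11, the kinesin Eg5 that pushes spindle poles apart, had levels of 9.34, 7.81 and 9.32 in SP anti-EpCAM cells against 9.17, 8.91 and 9.21 in non-SP anti-EpCAM cells, and 8.57, 8.92 and 9.59 in untreated SP cells against 9.40, 9.15 and 9.45 in untreated non-SP cells. Kif2c, a kinesin that shortens microtubules at centromeres, had levels of 9.65, 8.42 and 9.63 in SP anti-EpCAM cells against 9.27, 9.42 and 9.61 in non-SP anti-EpCAM cells, and 8.85, 9.36 and 9.72 in untreated SP cells against 9.79, 9.62 and 9.52 in untreated non-SP cells. The other Kif2c probe set above the median gene level, at 7.63, differed by -0.91 in anti-EpCAM culture 2 and -0.55 in untreated culture 1. With the chosen probe set, which has an x_at name, Kif2c differed by -0.94 in untreated culture 1. That was the lowest of the members there and ranked 19th from the bottom of all genes. Over untreated cells it differed by -0.33 ± 0.30 (SE), an adjusted p of 1.00 by limma. Nusap1, which bundles spindle microtubules near chromosomes, had levels of 10.36, 8.66 and 10.19 in SP anti-EpCAM cells against 10.06, 9.70 and 10.10 in non-SP anti-EpCAM cells, and 9.46, 9.90 and 10.60 in untreated SP cells against 10.38, 10.33 and 10.33 in untreated non-SP cells. It is the member whose treated and untreated non-SP arrays separated, as described below. Kif4, a chromosome-bound kinesin, and Tpx2, which activates Aurka on the spindle, differed by -0.57 and -0.51 in anti-EpCAM culture 2. Hmmr and Dlgap5, which stabilise spindle microtubules, differed by -1.05 and -1.002 there.

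Among the genes of the central spindle and cytokinesis, Prc1, which bundles the antiparallel microtubules of the central spindle, had levels of 10.16, 9.23 and 10.31 in SP anti-EpCAM cells against 10.09, 10.35 and 10.26 in non-SP anti-EpCAM cells, and 9.63, 9.75 and 10.21 in untreated SP cells against 10.32, 10.05 and 10.10 in untreated non-SP cells. In the fit that did not pair arrays by culture, it had the lowest unadjusted p of all members in untreated cells, at -0.29 ± 0.26 (SE). The same held in the mean over treatments, with -0.31 ± 0.18 (SE) and a 95% interval from -0.70 to 0.08. The adjusted p by limma was 1.00 in both. With arrays paired by culture, the lowest unadjusted p was that of Kif4 in untreated cells and of Ube2c in the mean. Ect2, the exchange factor that activates RhoA at the division plane, had levels of 9.95, 8.64 and 9.21 in SP anti-EpCAM cells against 9.31, 8.75 and 9.58 in non-SP anti-EpCAM cells, and 9.23, 8.53 and 10.41 in untreated SP cells against 10.01, 8.80 and 10.06 in untreated non-SP cells. Its arrays grouped by culture more than by fraction: both arrays of anti-EpCAM culture 2 and of untreated culture 2 lay between 8.53 and 8.80, and all others at 9.21 or above. Its difference in anti-EpCAM culture 2, -0.11, was the smallest of all members, and that in anti-EpCAM culture 1, 0.64, was the highest. Ect2 was singled out after its values were seen. Racgap1 and Kif23, which form the centralspindlin complex with which Ect2 works, differed by -0.77 and -0.78 in anti-EpCAM culture 2 and by -0.51 and -0.53 in untreated culture 1. Kif20a, a kinesin of the central spindle, differed by -1.04 and -0.75 in these cultures, and Anln, the anillin of the contractile ring, by -0.74 and -0.61.

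Other probe sets of the same genes gave a partial check. The 39 members had 86 probe sets, 27 members had several, and 47 probe sets were not the chosen ones. Of these 47, 32, 38 and 15 had the sign of the chosen one in anti-EpCAM cultures 1, 2 and 3, and 38, 32 and 33 in untreated cultures 1, 2 and 3. Among the 24 with a mean above the median gene level, 20, 22 and 8 had it with the antibody and 24, 19 and 22 without it. The count was lowest in anti-EpCAM culture 3, where the members differed least. Their median difference was -0.51 in anti-EpCAM culture 2 and -0.47 in untreated culture 1, smaller than for the chosen probe sets. Centring each array on its median kept the members' median at -0.98 and -0.60 in these cultures.

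SP and non-SP cells with the antibody, taken as groups, differed by a median of -0.21 over the members (38 of 39 lower). Over all genes the median was -0.03, with 57.7% lower. limma called 0 of 39, with 0.0% of all genes called, and no member passed an unadjusted p under 0.05, against 0.698% of all genes. Without the antibody the median was -0.22 (38 of 39 lower), against 0.01 over all genes, of which 46.3% were lower. Again 0 of 39 were called, with 0.0% of all genes called. At the unadjusted threshold there were 0 members, against 0.022% of all genes. The 95% interval of a member reached a median of 0.66 log2 units to either side in each of these comparisons. No member had all 3 SP arrays above, or all 3 below, the 3 non-SP arrays in either treatment. Of all genes, 0.572% lay wholly higher and 1.78% wholly lower in SP cells with the antibody, and 1.24% and 1.13% without it. Each group median depended on single cultures, in both directions. Without both arrays of anti-EpCAM culture 2 it was 0.11 with the antibody, and without both arrays of untreated culture 1 it was -0.01 in untreated cells. The mean over treatments was 0.05 without both cultures. Each had the lowest member median of its treatment, so leaving it out moves the group median up by construction. Leaving out untreated culture 1, alone or with the other, was chosen after the data were seen. In the other direction, the median was -0.41 with the antibody without SP anti-EpCAM replicate 3. In untreated cells it was -0.42 without SP untreated replicate 3.

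With each culture as a block, which removes the level that its SP and non-SP arrays share, the 95% interval of a member narrowed to a median of 0.51 to either side. limma again called 0 of 39 members and 0.0% of all genes in both treatments and in their mean, and at the unadjusted threshold 0 members against 7.21% of all genes with the antibody, 1.68% without it and 2.13% in the mean. The lowest adjusted p of a member was 0.628 with the antibody. In this fit the p-values measure the spread of the SP minus non-SP differences between cultures. Without the block they measure the spread between the arrays of a group. The labels call the arrays biological replicates and state no shared culture.

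The comparison of anti-EpCAM with untreated cells uses the same arrays as the comparisons of fractions. In non-SP cells the members differed by a median of -0.14 between treated and untreated cells (35 of 39 lower), and in SP cells by -0.15 (36 of 39 lower). All genes together differed by -0.10 and -0.12 in the same comparisons, and 70.9% and 78.4% of them were lower. With arrays centred on their medians the members' medians were 0.02 in non-SP and -0.02 in SP cells, so the direction in non-SP cells turned with the scaling. limma called 0 of 39 in non-SP cells, with 0.0% of all genes called, and 0 of 39 in SP cells, with 0.0%. No member passed the unadjusted threshold, against 3.22% and 4.59% of all genes. With the culture as a random block there were again 0 members, against 2.42% of all genes in non-SP and 3.89% in SP cells.

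In non-SP cells Ect2 had the lowest unadjusted p with the culture as a random block, and Nusap1 had it without a block. The 3 anti-EpCAM arrays of Nusap1, at 9.70 to 10.10, lay below its 3 untreated arrays, at 10.33 to 10.38. The difference without a block was -0.39 ± 0.38 (SE) with an adjusted p of 0.988 by limma. Nusap1 was the 1 member of 39 whose arrays did not overlap in this direction, while 6.62% of all genes did so, and 0 members lay wholly higher, against 1.19% of all genes. Cdc25c was next without a block, at -0.34 ± 0.35 (SE) in non-SP cells, with overlapping arrays. In SP cells Pttg1 had the lowest unadjusted p, at -0.24 ± 0.15 (SE), and Ndc80 the next, at -0.25 ± 0.26 (SE), both with overlapping arrays. No member separated in SP cells, against 8.04% of all genes lower and 0.434% higher. Without both arrays of anti-EpCAM culture 2 the members' median in SP cells was 0.27 in place of -0.15, and Plk1 was then the 1 member of 39 (2.56%) past an unadjusted p under 0.05, against 6.53% of all genes. The difference between the fraction effects with and without the antibody had a median of -0.02 over the members, with 0 of 39 members called, 0.0% of all genes called, and 0 members against 0.236% of all genes at the unadjusted threshold. With the culture as a block it was 0 members against 5.51%.

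Other cell cycle genes were read from lists for comparison. Of 66 further mitosis genes, the median differences were 0.19, -0.59 and -0.02 in the anti-EpCAM cultures and -0.46, -0.13 and 0.09 in the untreated ones. The 4 of them with the largest moderated t in the mean over treatments were Iqgap3, a scaffold of the cell cortex, Spc25, a subunit of the Ndc80 complex, Gtse1, which binds microtubules in G2, and Aspm, a protein of spindle poles. They differed by -0.37 ± 0.21 (SE), -0.25 ± 0.15 (SE), -0.26 ± 0.16 (SE) and -0.31 ± 0.21 (SE). DNA replication and G1/S genes, 33 in number, had medians of 0.16, -0.27 and -0.08 in the anti-EpCAM cultures and -0.32, 0.01 and 0.09 in the untreated cultures. Tk1, thymidine kinase, was among the lowest of them, at -1.08 in anti-EpCAM culture 2 and -0.55 in untreated culture 1. Ccne1, Gins1 and Fen1, which serve S phase entry, the replicative helicase and lagging strand synthesis, differed by -0.60, -0.71 and -0.68 in anti-EpCAM culture 2 and by -0.12, -0.20 and -0.24 in untreated culture 1.

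The factors that control the members, 22 genes of the DREAM and MuvB complexes, E2F, NF-Y and FoxM1, had medians within 0.20 of 0 in each culture. Foxm1 differed by -0.09, -0.84 and 0.06 in the anti-EpCAM cultures and -0.25, -0.31 and -0.11 in the untreated cultures. Lin37, a MuvB subunit, E2f4, the repressor E2F of DREAM, and Nfyc, a subunit of NF-Y, averaged -0.20, -0.11 and -0.08 over the 6 cultures. Of 19 further genes of the anaphase promoting complex and checkpoint, most of them not known as periodic, the medians were 0.05, -0.30 and 0.02 with the antibody and -0.12, -0.01 and 0.17 without it. Anapc2, Anapc11 and Bub3 averaged -0.12, -0.15 and -0.09, and Anapc7 averaged 0.09. The lowest of this list in anti-EpCAM culture 2 was Fbxo5 at -0.85, which encodes the inhibitor Emi1 and is known as periodic. The 17 CDK inhibitors and genes of cell cycle exit had medians between -0.03 and 0.08 in all 6 cultures. Klf6, Tob1 and Cdkn2b, which restrain proliferation, averaged 0.15, 0.14 and 0.18. Gas2l3 in this list, which links actin to microtubules, moved with the members instead, at 0.23, -1.18 and 0.11 in the anti-EpCAM cultures and -0.79, -0.21 and 0.39 in the untreated cultures. limma called 0 genes of these lists in any comparison. For the antibody in non-SP cells 1 of 66 further mitosis genes passed an unadjusted p under 0.05 (Ska3), against 3.22% of all genes. In SP cells 1 of 22 genes of the transcription factor list passed (E2f4), against 4.59% of all genes. Both were named after their values were seen.

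**Figure D5:**
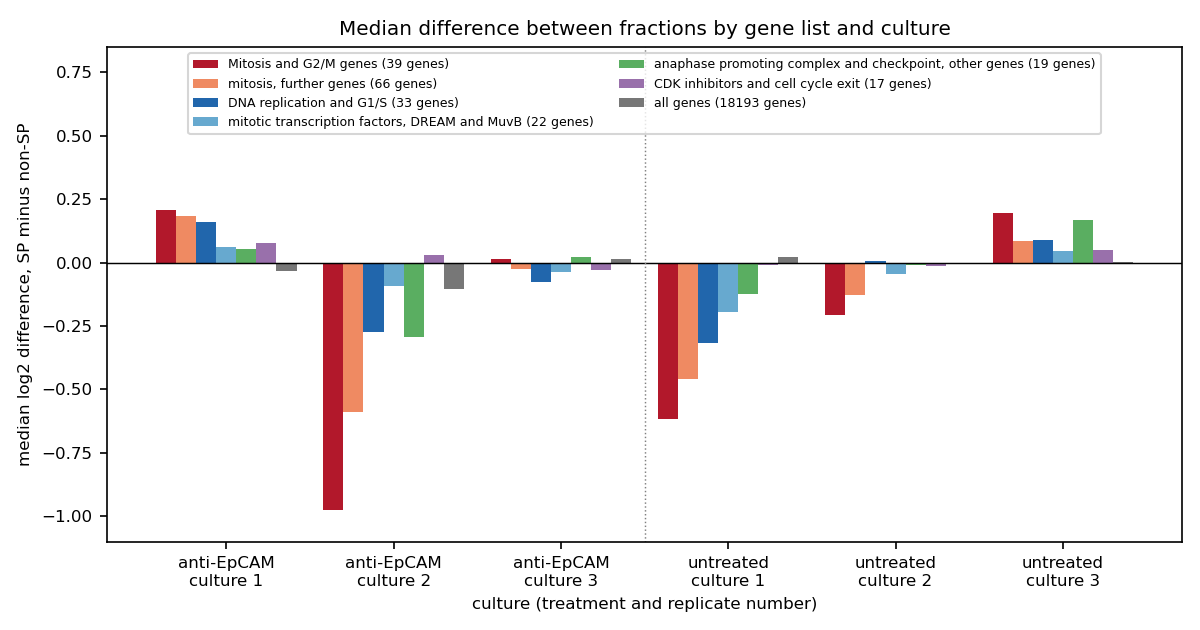
Median log2 difference between the SP and the non-SP array of each culture for the 39 members, 5 other cell cycle lists and all 18193 genes. The members' bars are the longest in anti-EpCAM culture 2 and in untreated cultures 1 and 2, the further mitosis genes come next in each of these, and the CDK inhibitors stay between -0.03 and 0.08.

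The likeness to the members was also sought in the rest of the table, by correlation of a gene's 6 culture differences with the members' median. A correlation above 0.9 with the median of the other members was found for 35 of 39 members (89.7%), and with the members' median for 616 of 17957 genes outside the lists (3.43%). The 4 members below 0.9 were Ect2 at 0.58, Pttg1 at 0.73, Cks2 at 0.85 and Cdc20 at 0.88. The 10 genes most alike were Cmc2, Cope, Rnf145, Ccnd3, Tcf19, Ercc6l, Prss22, Lrrc45, Mapk7 and Coro1c, all at 0.99 or above over 6 points. Cmc2 differed by 0.27, -0.76 and 0.08 in the anti-EpCAM cultures and -0.44, -0.06 and 0.30 in the untreated cultures. Ccnd3, which encodes cyclin D3 of G1, differed by 0.17, -0.43 and 0.05 in the anti-EpCAM cultures and -0.29, -0.03 and 0.12 in the untreated cultures. These are descriptions over 6 cultures, of which 2 carry most of the range.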

How the data were processed

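Expression was measured on 12 Affymetrix mouse genome arrays, 4 groups of 3, per the labels from total RNA amplified from the 3' end. The authors deposited log2 values made by RMA, per the submitters' processing notes. The software is not given in the sources used here. Array medians over all probe sets ran from 5.72 to 6.06, so a later scaling is unknown. Of 45101 probe sets, 34945 had 1 symbol in the platform annotation, 932 several and 9160 none, and 64 were controls. Per gene the probe set with the highest mean stood in, without a filter on level, which gave 18193 genes. Of the members' chosen probe sets, 8 had s_at or x_at names and may take up related transcripts. Some of the members' other probe sets had such names too.

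Differences were tested with limma 3.58.1 in R 4.3.3 (group means, 8 residual degrees of freedom, two-sided, Benjamini-Hochberg over all genes, threshold 0.05), checked on simulated data. The simulated arrays were independent of each other, unlike the SP and non-SP arrays of a culture, so the check does not cover that dependence. Python 3.11.15 with pandas 2.3.3, numpy 2.4.6 and matplotlib 3.10.9 served for the rest. The members and lists were chosen with earlier results of these data known. All members may be named. Values on each array are given for 12 fixed members and for the 2 with the largest moderated t in each comparison, and up to 4 genes are named per further list. Pairing was checked by the correlation across genes of deviations from group means, which was 0.55 to 0.84 for each SP array with the non-SP array of its number and treatment, and -0.38 to -0.0054 for treated and untreated arrays of one number. A block therefore joins only SP and non-SP arrays. Promoter sequences and their start sites are from RefSeq. Alternatives were the scaling, the probe set rule, a filter on level, the variance model, array weights, blocks and leaving out arrays.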

Additional observations from a re-analysis of the deposited data

How the results depend on the processing

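No member was called by limma in any of the 6 comparisons under any alternative, so no call depended on the processing. The replicate block within treatment left the calls at 0 of 39 members and 0 of 18193 genes, and a replicate block across all 4 groups gave 0 as well. At an unadjusted p under 0.05, 1 or 2 of 39 members (2.56% or 5.13%) passed in 6 combinations of a setting and a comparison. Cdk1 and Ube2c passed for untreated SP against non-SP cells with the replicate block and no anti-EpCAM culture 2, against 2.67% of all genes. Plk1 passed for the antibody in SP cells without SP anti-EpCAM replicate 2 and without both arrays of that culture, against 4.38% and 6.53%. Without SP anti-EpCAM replicate 3, Ube2c passed for SP against non-SP with the antibody, against 4.07%, and Prc1 and Ube2c in the mean over treatments, against 1.31%. Ccna2 passed in that mean without SP untreated replicate 3, against 0.0715%. Leaving out 1 array at a time, the members' median ranged from -0.41 to 0.16 for SP against non-SP with the antibody, -0.42 to -0.04 without it, -0.35 to -0.02 in the mean, -0.20 to -0.07 for the antibody in non-SP cells, -0.36 to 0.27 in SP cells and -0.21 to 0.36 for the interaction. The positive ends came without SP anti-EpCAM replicate 2. With array weights, lowest for both arrays of anti-EpCAM culture 2 (0.52 for SP and 0.47 for non-SP), the first 3 medians were -0.07, -0.15 and -0.11. Leaving out untreated culture 1, alone or with anti-EpCAM culture 2, was chosen after the data were seen. The mean of all probe sets of a gene gave -0.75 for anti-EpCAM culture 2 and -0.56 for untreated culture 1. Each group has 3 arrays, and the 95% interval of a member's difference reached a median of 0.66 log2 units to either side within a treatment or fraction, 0.47 in the mean over treatments and 0.93 for the interaction.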
